A study of Mus musculus with 36 samples.

Results

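The data describe 7 genes that write, keep or remove DNA methylation, among 40354 genes counted by RNA-seq in mouse B cells turning into macrophages. The members were taken by name: Dnmt1, Dnmt3a and Dnmt3b, the DNA methyltransferases, Uhrf1, the cofactor of Dnmt1, and Tet1, Tet2 and Tet3, the methylcytosine dioxygenases. All 7 were present in the count tables and in the log2 tables of 19067 genes, and all 7 passed the low-count filter of every fit. Cells were bone marrow B cells, selected by a surface marker, of C57BL/6J mice, infected with a retrovirus that carries C/EBPα fused to the estrogen receptor (ER) and the surface marker hCD4, and grown on mouse embryonic fibroblast (MEF) feeders. C/EBPα-ER was wild type (WT) or had arginine 35 replaced by alanine (R35A) or by lysine (R35K). The hormone 17β-estradiol (E2) moves the fusion protein into the nucleus and starts B cell to macrophage transdifferentiation (BMT). Cells were collected uninduced, at 0 hr post induction (hpi), and after 1, 3, 6, 18 or 120 hr with E2, with 2 biological replicates in each of the 18 combinations of construct and time, 36 libraries in all. Every group carries a C/EBPα-ER construct, so effects of the hormone or of the culture cannot be told apart here from those of C/EBPα. The sources used here give neither the age of the mice nor whether animals were pooled. P-values measure the spread between replicates, taken over all groups of a fit and with information shared between genes.

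Maintenance methylation copies the pattern of methylated CpG sites onto the new DNA strand after replication: Uhrf1 recognises half-methylated CpG sites and brings in Dnmt1. Dnmt3a and Dnmt3b set new methylation, and are known for their role in haematopoietic stem cells, where Dnmt3a and Tet2 are both frequent targets of mutation in myeloid disease. The TET enzymes oxidise methylcytosine, using 2-oxoglutarate and iron, and thereby open the way to removal of the mark by base excision or by dilution at replication. The libraries measure transcripts only, not DNA methylation.

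In the libraries, 8 B cell markers summed to between 2835 and 3143 CPM (counts scaled by library size) at 0 hpi and to between 63.0 and 137 at 120 hpi, and the macrophage markers, also 8, to between 60.9 and 67.6 and between 20953 and 32626 CPM at these times. The labelled cell types therefore carried their defining markers at both ends. A list of 6 fibroblast genes summed to between 879 and 965 CPM at 0 hpi, between 1209 and 2374 at 1 to 18 hpi and between 106 and 415 at 120 hpi, so genes of the feeder cell type were read in every group. A list of 6 granulocyte genes summed to between 37.6 and 48.3 CPM at 0 hpi and between 1.77 and 6.63 at 1 to 18 hpi. At 120 hpi the granulocyte sum lay between 1.79 and 10.7 CPM, and its part in any change from 0 hpi was not tested. In bulk RNA, fewer cells of a type and less RNA per cell cannot be told apart. Libraries held between 13044456 and 23131776 counts. Cebpa had mean levels between 37.3 and 40.8 CPM in the 3 constructs at 0 hpi, and of 103 in WT, 54.2 in R35A and 89.5 in R35K cells at 1 hpi, and reads of the retroviral and of the endogenous transcript cannot be told apart in gene counts.

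Dnmt1, Uhrf1 and Dnmt3b fell together in every construct, and their promoter windows are shown here to let the sequences be set beside the levels. The windows come from RefSeq (GRCm38.p6) and reach from 250 bases before to 50 bases after an annotated start, and for each gene the window with the most CpG sites was taken. Gene counts do not tell which start was used. The letters TTTNNCGC were searched on both strands as a pattern of the E2F type, known from genes of the replication phase, and matches are in capitals.
Dnmt1, minus strand of chr9:20952574-20952873: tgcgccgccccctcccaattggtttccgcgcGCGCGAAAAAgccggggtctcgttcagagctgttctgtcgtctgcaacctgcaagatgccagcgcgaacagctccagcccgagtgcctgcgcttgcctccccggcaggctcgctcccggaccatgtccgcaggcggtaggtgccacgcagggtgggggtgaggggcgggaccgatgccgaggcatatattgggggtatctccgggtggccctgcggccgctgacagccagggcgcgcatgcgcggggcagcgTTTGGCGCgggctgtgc
Uhrf1, plus strand of chr17:56304063-56304362: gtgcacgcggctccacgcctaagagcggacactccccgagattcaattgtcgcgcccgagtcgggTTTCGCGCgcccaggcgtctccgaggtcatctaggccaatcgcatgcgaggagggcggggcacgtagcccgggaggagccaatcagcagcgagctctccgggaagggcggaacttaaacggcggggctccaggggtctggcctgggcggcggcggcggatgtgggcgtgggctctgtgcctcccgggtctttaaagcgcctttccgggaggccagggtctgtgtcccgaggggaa
Dnmt3b, plus strand of chr2:153649199-153649498: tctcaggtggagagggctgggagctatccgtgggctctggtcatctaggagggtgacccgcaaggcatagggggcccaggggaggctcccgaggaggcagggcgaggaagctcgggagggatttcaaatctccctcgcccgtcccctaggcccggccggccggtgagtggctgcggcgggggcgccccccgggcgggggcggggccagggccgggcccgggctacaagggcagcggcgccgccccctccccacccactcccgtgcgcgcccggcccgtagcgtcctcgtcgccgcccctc

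The Dnmt1 window held 3 matches, of which 2 overlap, beginning 219 and 217 bases before and 33 bases after the start. Uhrf1 had 1, beginning 185 bases before the start, and the Dnmt3b window had none. Of all 32817 RefSeq windows, 5.16% held the pattern, and of the richest window of each of 27025 genes 5.42% did. Letters of the C/EBP type (TTGCNNAA, in 10.8% of all and 10.5% of the richest windows) were in none of the 7 members' windows, and letters of the PU.1 type (GAGGAA, in 28.3% and 28.1%) were in those of Dnmt3a and Dnmt3b. The members have 12 windows in all: a Dnmt1 window at chr9:20959839-20960138, not shown, held 4 matches of the PU.1 type and none of the E2F type, and another Uhrf1 window held 1 of the E2F type. A further Dnmt1 window, chr9:20952930-20953229, is that of a start annotated for a principal transcript. It held no match of the E2F, C/EBP or PU.1 type. The start of the Dnmt1 window shown lies 356 bases from the principal start. A match is only a description of the letters. All 7 windows held more CpG sites than the median, with between 17 and 57 against 8 in the richest window of each of 27025 genes. The Tet1 and Tet3 windows had the fewest of the TET genes, 17 and 22 sites. Of all RefSeq windows 68.6% and 76.9% held fewer. The starts of these 2 windows lie 11794 and 14714 bases from a principal start, so they may not describe the main promoter.

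In the GENCODE vM21 annotation of mm10, Dnmt1 is at chr9:20907209-20959888 on the minus strand, Uhrf1 at chr17:56303321-56323486 on the plus strand, Dnmt3a at chr12:3806007-3914443 on the plus strand and Dnmt3b at chr2:153649450-153687730 on the plus strand. Tet1 is at chr10:62804570-62908996, Tet2 at chr3:133463679-133545139 and Tet3 at chr6:83362373-83459084, all on the minus strand. The 7 genes are thus on 7 chromosomes. Annotated genes that overlap them had few counts: at most 25 in any library for Dnmt3aos, antisense to Dnmt3a, 23 for B230319C09Rik, antisense to Tet3, and 8 or fewer for the others that were counted. The strand setting of the counting is not given in the sources used here.

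Levels were compared between genes per length, as RPKM, CPM divided by the length in kilobases of the longest coding transcript. In WT cells at 0 hpi Uhrf1 had 111 ± 1.33 RPKM (SD, n = 2) and Dnmt1 75.5 ± 0.722, while Tet3, Tet2 and Dnmt3a lay between 7.06 and 9.79 RPKM. Dnmt3b had 2.88 ± 0.146 RPKM and Tet1, the least abundant member, 0.360 ± 0.00279. The maintenance pair thus stood well above the other members in B cells. At 120 hpi in WT cells the levels lay closer, with 27.1 RPKM for Dnmt1, 25.5 for Tet3, 23.1 for Tet2, 15.2 for Dnmt3a and 11.1 for Uhrf1, followed by 1.16 for Dnmt3b and 0.0225 for Tet1. With the length of all exons joined, Dnmt3a and Tet2 had 4.11 and 4.70 RPKM in WT cells at 0 hpi, below their values by the longest transcript, and the order of the 7 genes at that time was the same. At 120 hpi the order in WT cells depended on the length used, with 21.5 RPKM for Dnmt1, 16.6 for Tet3, 12.6 for Tet2, 9.38 for Uhrf1 and 8.85 for Dnmt3a by all exons joined.

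**Figure D1:**
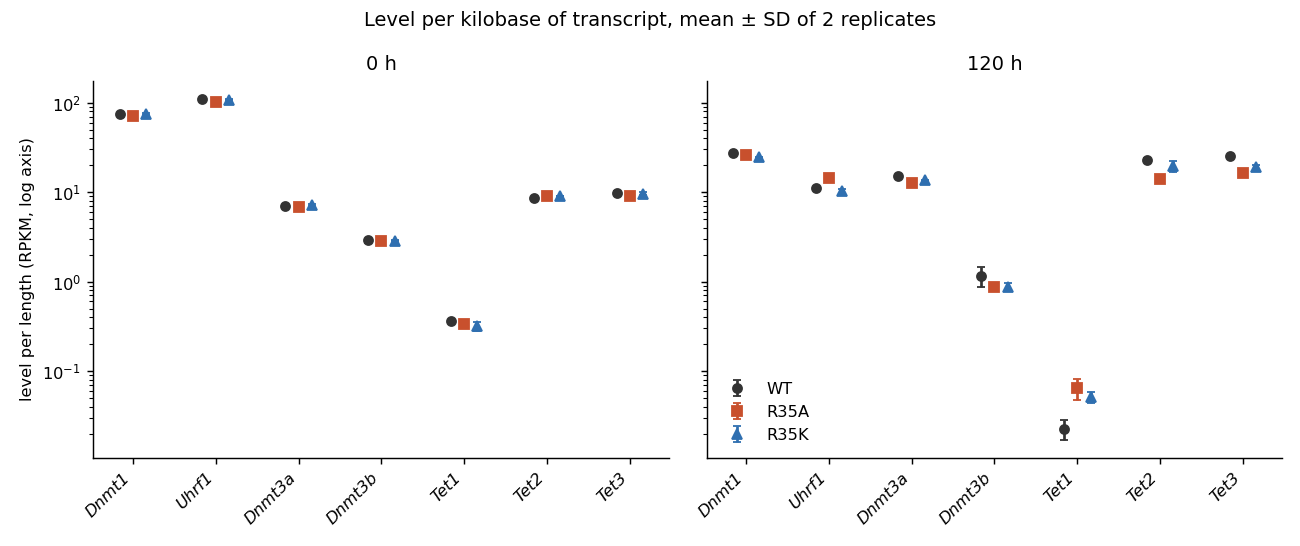
Level per length (RPKM, log axis) of the 7 genes at 0 hpi (left) and 120 hpi (right) in WT, R35A and R35K cells, mean ± SD of 2 replicates. Uhrf1 and Dnmt1 were highest at 0 hpi (111 and 75.5 RPKM in WT), and Dnmt1, Tet3 and Tet2 at 120 hpi (27.1, 25.5 and 23.1).

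At 0 hpi the constructs did not differ in any member by the call used throughout, a change of at least 1.5-fold with an adjusted p of at most 0.05 in edgeR's quasi-likelihood test. Between R35A and WT cells 0 of 7 members were called, as were 0.0% of 16988 genes. The members' log2 differences lay between -0.12 and 0.06, with 3 members at an unadjusted p of 0.05 or less without regard to fold and 0 when 1.5-fold was also asked. R35K cells had 0 of 7 members called against WT cells, again beside 0.0% of 17277 genes, with log2 differences between -0.16 and 0.07 and 0 members at an unadjusted p of 0.05 or less. DESeq2 and limma likewise called 0 members in both comparisons.

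The first question of the design was how each gene moved from 0 hpi in each construct. Dnmt1, Uhrf1 and Dnmt3b fell at every time in all 3 constructs. In WT cells at 1 hpi these 3 of 7 members fell and 0 rose, where 9.27% of all genes fell. The same 3 fell in WT cells at 3, 6 and 18 hpi, beside 11.5%, 14.7% and 23.2% of all genes. In R35A cells they fell at 1, 3 and 6 hpi, beside 18.9%, 19.0% and 19.2%, and Tet1 joined them at 18 hpi (4 of 7, beside 21.6%). R35K cells had 4 of 7 lower at 1 and 3 hpi, these 3 and Tet1, beside 17.4% and 16.8%, 3 of 7 at 6 hpi beside 17.8%, and 4 of 7 at 18 hpi beside 20.5%. No member rose at 1 to 18 hpi in any construct. Of all genes 10.7%, 12.0%, 15.1% and 23.9% rose in WT cells at these 4 times, 18.3%, 17.9%, 18.5% and 21.0% in R35A cells and 15.5%, 15.9%, 16.3% and 18.4% in R35K cells.

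Dnmt1, the maintenance methyltransferase, had levels in WT cells of 439.9 and 446 CPM at 0 hpi, then 265 and 260.2 (1 hpi), 229 and 229 (3 hpi), 178 and 188 (6 hpi), 73.9 and 71.5 (18 hpi), 158 and 160.1 (120 hpi). Both replicates lay close at each time, and the level stepped down from each time to the next until 18 hpi, then was higher again at 120 hpi. R35A cells had 411 and 421 CPM at 0 hpi, then 109 and 105 (1 hpi), 112 and 113 (3 hpi), 102 and 105 (6 hpi), 86.9 and 82.2 (18 hpi), 153 and 156 (120 hpi). The libraries of 1, 3 and 6 hpi thus all lay between 102 and 113 CPM, far below those of 0 hpi. In R35K cells the values were 426 and 445 CPM at 0 hpi, then 162 and 150.4 (1 hpi), 155 and 155 (3 hpi), 142 and 135 (6 hpi), 93.3 and 91.8 (18 hpi), 146 and 141 (120 hpi). These lay between WT and R35A libraries at 1, 3 and 6 hpi, with no overlap. The log2 changes from 0 hpi in WT cells were -0.73 ± 0.03 (1 hpi), -0.96 ± 0.03 (3 hpi), -1.29 ± 0.04 (6 hpi), -2.61 ± 0.04 (18 hpi), -1.61 ± 0.04 (120 hpi) (SE, n = 2 replicates in each group), a 6.11-fold fall at 18 hpi. R35A cells had -1.98 ± 0.04 (1 hpi), -1.91 ± 0.04 (3 hpi), -2.02 ± 0.04 (6 hpi), -2.32 ± 0.04 (18 hpi), -1.56 ± 0.04 (120 hpi), and R35K cells -1.53 ± 0.04 (1 hpi), -1.53 ± 0.04 (3 hpi), -1.72 ± 0.04 (6 hpi), -2.28 ± 0.04 (18 hpi), -1.70 ± 0.04 (120 hpi).

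Uhrf1, which brings Dnmt1 to half-methylated CpG sites, had a 16.3-fold range over the 18 group means, beside 6.09-fold for Dnmt1. Its WT levels were 395 and 401 CPM at 0 hpi, then 160.1 and 152 (1 hpi), 139.9 and 135 (3 hpi), 102 and 100.2 (6 hpi), 25.3 and 23.6 (18 hpi), 40.1 and 39.9 (120 hpi). The R35A libraries held 365 and 370.0 CPM at 0 hpi, then 56.3 and 53.3 (1 hpi), 54.3 and 51.2 (3 hpi), 47.0 and 48.0 (6 hpi), 26.4 and 27.5 (18 hpi), 54.9 and 48.8 (120 hpi), and the R35K libraries 383 and 395 CPM at 0 hpi, then 87.1 and 85.8 (1 hpi), 83.5 and 79.7 (3 hpi), 69.2 and 70.7 (6 hpi), 38.5 and 36.03 (18 hpi), 38.2 and 35.1 (120 hpi). At 1 hpi the 3 constructs did not overlap, with R35A lowest and WT highest, and at 18 hpi they did not overlap either, with WT lowest and R35K highest. In WT cells the log2 change was -1.33 ± 0.04 (1 hpi), -1.54 ± 0.04 (3 hpi), -1.99 ± 0.04 (6 hpi), -4.03 ± 0.05 (18 hpi), -3.44 ± 0.05 (120 hpi), which is 2.51-fold lower at 1 hpi and 16.3-fold lower at 18 hpi. The change of R35A cells was -2.77 ± 0.04 (1 hpi), -2.83 ± 0.04 (3 hpi), -2.97 ± 0.04 (6 hpi), -3.79 ± 0.05 (18 hpi), -2.95 ± 0.04 (120 hpi), and that of R35K cells -2.22 ± 0.04 (1 hpi), -2.30 ± 0.04 (3 hpi), -2.54 ± 0.04 (6 hpi), -3.43 ± 0.05 (18 hpi), -3.51 ± 0.05 (120 hpi). On the scale of the deposited log2 tables the replicates of WT cells fell from 12.57 and 12.59 at 0 hpi to 8.71 and 8.63 at 18 hpi.

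Dnmt3b, a de novo methyltransferase, was low at the start and lower after. The WT libraries had 12.0 and 12.9 CPM at 0 hpi, then 7.16 and 7.62 (1 hpi), 6.57 and 6.49 (3 hpi), 5.63 and 5.77 (6 hpi), 2.93 and 2.43 (18 hpi), 5.93 and 4.11 (120 hpi). The R35A values were 12.1 and 12.6 CPM at 0 hpi, then 3.40 and 4.30 (1 hpi), 2.90 and 3.14 (3 hpi), 3.31 and 2.51 (6 hpi), 2.25 and 2.61 (18 hpi), 4.01 and 3.49 (120 hpi), and the R35K values 12.4 and 12.2 CPM at 0 hpi, then 5.83 and 4.96 (1 hpi), 5.12 and 4.51 (3 hpi), 4.95 and 4.55 (6 hpi), 3.60 and 3.70 (18 hpi), 3.51 and 4.06 (120 hpi). Every library after induction lay below every library of 0 hpi. Counts per library were as low as 35, so its errors were larger: the log2 change in WT cells was -0.73 ± 0.12 (1 hpi), -2.22 ± 0.15 (18 hpi), -1.43 ± 0.15 (120 hpi), against -1.71 ± 0.13 (1 hpi), -2.35 ± 0.15 (18 hpi), -1.85 ± 0.15 (120 hpi) in R35A cells and -1.24 ± 0.13 (1 hpi), -1.80 ± 0.14 (18 hpi), -1.80 ± 0.15 (120 hpi) in R35K cells.

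**Figure D2:**
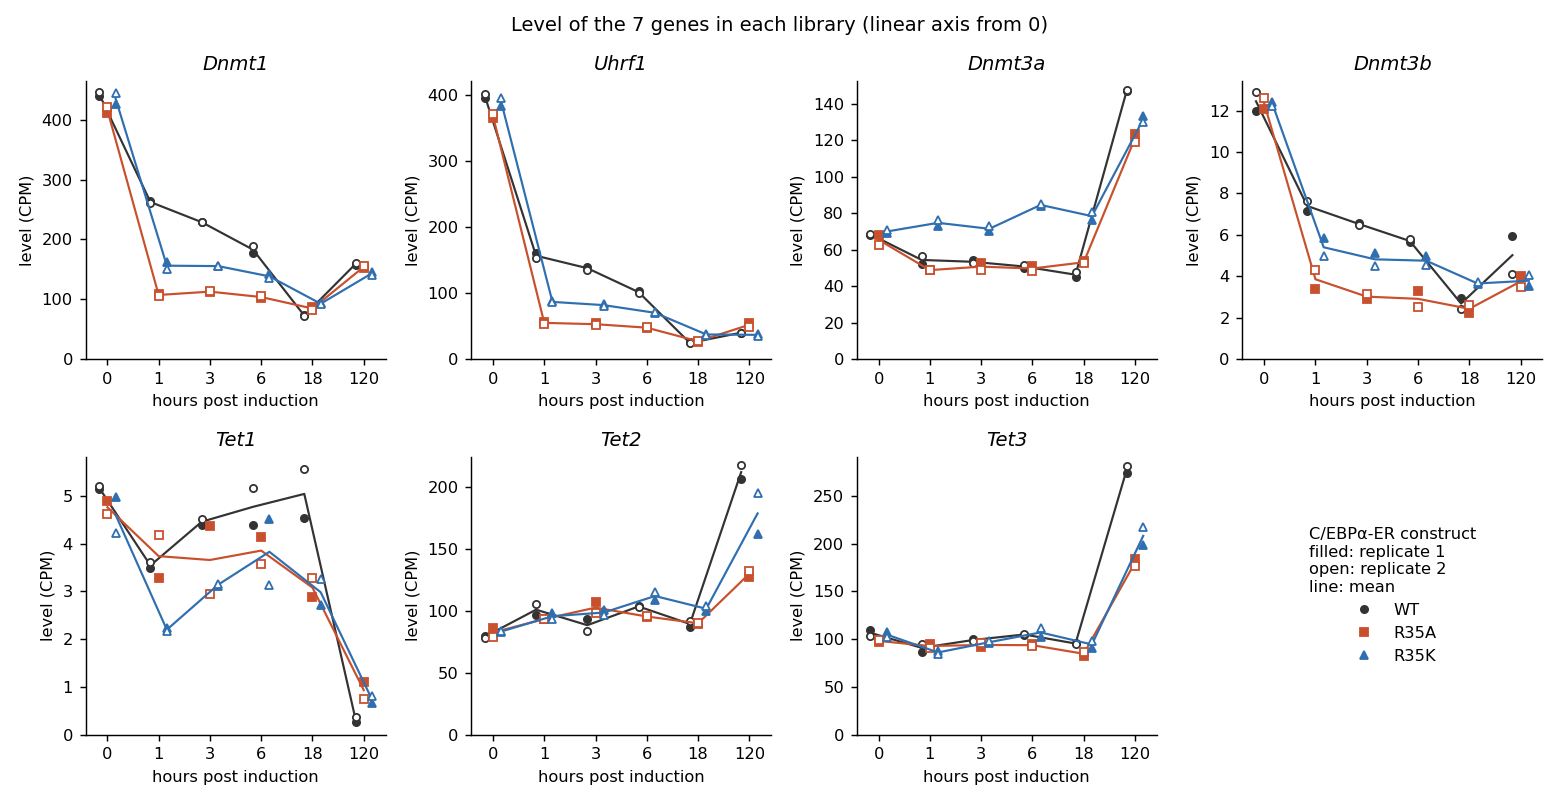
Level of each gene in every library (CPM, linear axis from 0) against time, spaced evenly, for WT, R35A and R35K cells; filled and open symbols are the 2 replicates and lines join the means. Dnmt1, Uhrf1 and Dnmt3b were lower after induction in all libraries, Dnmt3a and Tet3 were highest at 120 hpi in each construct, and Tet1 was at 0.265 to 1.11 CPM at 120 hpi.

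Dnmt3a, the other de novo enzyme, did not follow Dnmt3b. In WT cells its level was 68.1 and 68.7 CPM at 0 hpi, then 52.4 and 56.3 (1 hpi), 54.1 and 52.5 (3 hpi), 49.8 and 51.7 (6 hpi), 44.9 and 47.6 (18 hpi), 147 and 147 (120 hpi). R35A cells had 68.2 and 62.6 CPM at 0 hpi, then 48.7 and 48.8 (1 hpi), 52.4 and 48.9 (3 hpi), 50.7 and 48.5 (6 hpi), 53.6 and 52.5 (18 hpi), 123 and 119 (120 hpi). In both constructs the libraries of 1 to 18 hpi lay below those of 0 hpi, and those of 120 hpi lay above all others. The largest log2 change among these times was -0.57 ± 0.05 in WT cells at 18 hpi, just under 1.5-fold, and it passed 1.5-fold without replicate 2 of that time (-0.61). In R35K cells the libraries had 68.8 and 71.0 CPM at 0 hpi, then 73.0 and 76.3 (1 hpi), 70.1 and 72.8 (3 hpi), 83.96 and 85.0 (6 hpi), 76.1 and 80.6 (18 hpi), 133 and 129.7 (120 hpi). All but 1 of the libraries of 1 to 18 hpi, replicate 1 at 3 hpi, lay above both libraries of 0 hpi. At 120 hpi Dnmt3a rose in each construct, with log2 changes of 0.98 ± 0.05 in WT, 0.77 ± 0.05 in R35A and 0.81 ± 0.05 in R35K cells.

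Tet2, the TET enzyme most studied in myeloid cells, changed by less than 1.5-fold until 18 hpi in every construct. Its WT levels were 80.02 and 78.6 CPM at 0 hpi, then 97.0 and 105 (1 hpi), 93.3 and 83.95 (3 hpi), 104 and 103 (6 hpi), 87.1 and 92.2 (18 hpi), 207 and 218 (120 hpi). R35A cells held 86.3 and 79.1 CPM at 0 hpi, then 93.6 and 93.7 (1 hpi), 108 and 98.2 (3 hpi), 94.9 and 96.4 (6 hpi), 89.9 and 90.5 (18 hpi), 128 and 133 (120 hpi), and R35K cells 83.2 and 83.8 CPM at 0 hpi, then 98.1 and 93.6 (1 hpi), 101 and 96.6 (3 hpi), 109 and 115 (6 hpi), 99.8 and 104 (18 hpi), 162 and 196 (120 hpi). The 120 hpi libraries of each construct lay above all its earlier libraries, and the 3 constructs did not overlap there. The log2 rise from 0 hpi was 1.29 ± 0.05 in WT cells and 1.00 ± 0.06 in R35K cells. In R35A cells the value was 0.54 ± 0.05, which did not reach 1.5-fold in this fit. It passed 1.5-fold with DESeq2 (0.67), with limma (0.64), with DESeq2's size factors in edgeR (0.67) and in the fit of all 36 libraries (0.66). It also passed without replicate 1 of 0 hpi (0.60) or replicate 1 (0.69) or 2 (0.63) of 120 hpi.

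Tet3, the other TET gene of high level, had levels in WT cells of 110.2 and 103 CPM at 0 hpi, then 86.7 and 95.3 (1 hpi), 100.2 and 98.2 (3 hpi), 105 and 105 (6 hpi), 96.5 and 94.5 (18 hpi), 274 and 281 (120 hpi). The R35A libraries had 96.8 and 99.7 CPM at 0 hpi, then 94.8 and 91.0 (1 hpi), 92.1 and 96.0 (3 hpi), 95.1 and 92.5 (6 hpi), 82.9 and 86.8 (18 hpi), 184 and 177 (120 hpi), and the R35K libraries 107 and 102 CPM at 0 hpi, then 87.4 and 85.0 (1 hpi), 95.7 and 98.2 (3 hpi), 103 and 112 (6 hpi), 91.4 and 97.8 (18 hpi), 199 and 217 (120 hpi). At 120 hpi the WT libraries were highest and the R35A libraries lowest, without overlap. Tet3 rose in all 3 constructs, by 1.25 ± 0.04 in WT, 0.75 ± 0.04 in R35A and 0.89 ± 0.05 in R35K cells (log2).

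Tet1 had few counts throughout. In WT cells it had 75 and 73 counts at 0 hpi, between 53 and 96 at 1 to 18 hpi, and 3 and 4 at 120 hpi, or 5.14 and 5.20 CPM at 0 hpi, then 0.265 and 0.382 (120 hpi). R35A cells had 73 and 87 counts at 0 hpi, between 45 and 77 at 1 to 18 hpi and 13 and 10 at 120 hpi. R35K cells had 86 and 67, then between 34 and 75, and 8 and 10. All 6 libraries of 120 hpi lay below the other 30. As ratios of the summed counts scaled for depth, the level of 0 hpi was 16.1 times that of 120 hpi in WT cells (exact 95% interval 7.61 to 40.7, counting error only), 5.14 times in R35A cells (3.31 to 8.35) and 6.24 times in R35K cells (3.82 to 10.8). Earlier changes of Tet1 were smaller. In R35K cells the log2 change was -1.12 ± 0.21 (1 hpi), -0.60 ± 0.18 (3 hpi), -0.68 ± 0.19 (18 hpi), and the calls at 3 and 18 hpi were lost with DESeq2 (-0.52 and -0.59) and without replicate 1 of 0 hpi (-0.47 and -0.55), the latter also without replicate 1 of 18 hpi (-0.54). The R35K call at 3 hpi was also lost with limma (-0.53), with DESeq2's size factors in edgeR (-0.52), without the low-count filter (-0.57) and in the fit of all 36 libraries (-0.55). The R35A call at 18 hpi (-0.63 ± 0.18) was lost without replicate 1 of that time (-0.54) and with DESeq2 (-0.58). It was lost as well with limma (-0.57) and with DESeq2's size factors in edgeR (-0.57).

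At 120 hpi all 7 members were called in WT cells, 3 higher and 4 lower, beside 23.1% of genes higher and 40.2% lower. R35A cells had 2 higher and 4 lower (24.2% and 39.0% of genes), and R35K cells 3 higher and 4 lower (25.4% and 38.5%). DESeq2 and limma each called all 7 members in R35A cells, Tet2 included. With most genes called at that time, the share of members called is read against 63.3%, 63.1% and 63.8%. The median log2 change of all genes at 120 hpi was -0.36 in WT, -0.31 in R35A and -0.28 in R35K cells, and with DESeq2's size factors it was -0.20, -0.18 and -0.14. Every rise and fall named here at 120 hpi kept its direction under that scaling.

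**Figure D3:**
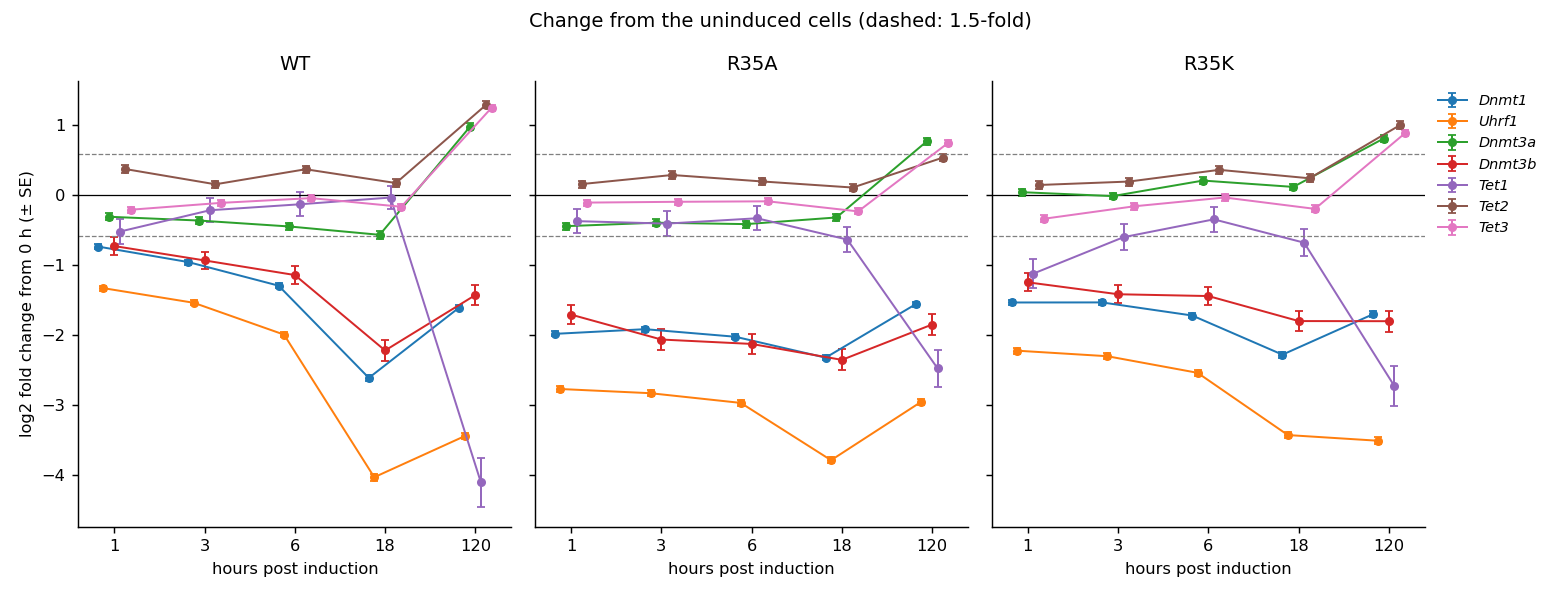
Log2 fold change from 0 hpi (± SE, 2 replicates a group) of the 7 genes at the 5 times after induction, a panel for each construct; the dashed lines mark 1.5-fold. Uhrf1 reached -4.03 in WT cells at 18 hpi, and Dnmt3a, Tet2 and Tet3 lay above 0 at 120 hpi in each panel.

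The steps between neighbouring times showed when each gene turned. Between 1 and 3 hpi and between 3 and 6 hpi 0 of 7 members were called in each construct by edgeR, DESeq2 or limma, beside 1.04% and 1.04% of genes in WT, 0.553% and 0.177% in R35A and 0.347% and 1.19% in R35K cells. At an unadjusted p of 0.05 or less, with no fold asked, these 6 steps had between 1 and 5 members. From 6 to 18 hpi Dnmt1, Uhrf1 and Dnmt3b fell in WT cells (3 of 7, beside 10.0% of genes lower), with log2 changes of -1.32 ± 0.04, -2.04 ± 0.05 and -1.08 ± 0.18. In the mutants 1 of 7 fell, Uhrf1, with log2 changes of -0.82 ± 0.06 in R35A cells (beside 2.76% of genes) and -0.89 ± 0.05 in R35K cells (beside 4.28%).

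From 18 to 120 hpi 6 of 7 members rose in WT cells, beside 27.5% of genes, and Tet1 fell (beside 33.0%). The rises were 1.00 ± 0.04 for Dnmt1, 0.59 ± 0.06 for Uhrf1, 1.54 ± 0.05 for Dnmt3a, 0.79 ± 0.20 for Dnmt3b, 1.12 ± 0.05 for Tet2 and 1.42 ± 0.04 for Tet3. Uhrf1 was just past 1.5-fold, and was not called without the low-count filter (0.53). In R35A cells 4 of 7 rose, beside 24.5% of genes: Dnmt1 by 0.77 ± 0.04, Uhrf1 by 0.84 ± 0.06, Dnmt3a by 1.09 ± 0.05 and Tet3 by 0.98 ± 0.04. R35K cells had 3 of 7 higher, Dnmt3a, Tet2 and Tet3, beside 24.7% of genes, while Uhrf1 had -0.08 ± 0.06 and Dnmt1 0.58 ± 0.05, which passed 1.5-fold with DESeq2 (0.63) and without replicate 1 of 18 hpi (0.59) or replicate 1 (0.59) or 2 (0.63) of 120 hpi. Whether the step from 18 to 120 hpi differed between constructs was not tested. Tet1 fell in this step in R35A and R35K cells too, with log2 changes of -1.84 ± 0.29 and -2.05 ± 0.32, beside 29.4% and 28.5% of genes.

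The main question of the design was whether the mutants changed gene expression at another pace than WT. The difference in the change from 0 hpi, R35A minus WT, was called for 3 of 7 members at 1 hpi, all lower in R35A, beside 8.74% of genes lower and 5.29% higher. Dnmt1 differed by -1.25 ± 0.05 (adjusted p = 1.42e-26), Uhrf1 by -1.44 ± 0.06 (adjusted p = 3.47e-27) and Dnmt3b by -0.98 ± 0.19 (adjusted p = 2.73e-05, edgeR quasi-likelihood test, Benjamini-Hochberg). These are falls 2.37-fold, 2.72-fold and 1.97-fold deeper. The same 3 differed at 3 hpi, beside 7.43% of genes lower, by -0.96 ± 0.05, -1.29 ± 0.06 and -1.13 ± 0.20. At 6 hpi they differed by -0.73 ± 0.05, -0.98 ± 0.06 and -0.98 ± 0.20, beside 5.99% of genes lower. Dnmt3a, Tet1, Tet2 and Tet3 had differences between -0.21 and 0.15 at these 3 times and were not called.

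At 18 hpi 0 of 7 members differed between R35A and WT in edgeR, DESeq2 or limma, beside 8.36% of genes, and 1 member, Tet1, passed at an unadjusted p (-0.60 ± 0.25) and also at the adjusted p when DESeq2's size factors were used in edgeR (-0.66, adjusted p = 0.0453). Dnmt1 had 0.29 ± 0.05 and Uhrf1 0.24 ± 0.07, opposite in sign to the earlier times and under 1.5-fold. WT cells at 6 hpi still had more Dnmt1 than R35A cells at 1 hpi (178 and 188 against 109 and 105 CPM), and WT cells at 18 hpi had less (73.9 and 71.5). The same order held for Uhrf1 (102 and 100.2 CPM in WT at 6 hpi, 56.3 and 53.3 in R35A at 1 hpi, 25.3 and 23.6 in WT at 18 hpi). At 120 hpi 2 of 7 differed, beside 9.85% of genes higher and 4.63% lower. The Tet2 difference was -0.76 ± 0.07, from log2 changes of 1.29 in WT and 0.54 in R35A cells, and the Tet1 difference 1.63 ± 0.57 (adjusted p = 0.0228, edgeR). The latter rests on the 23 counts of R35A and the 7 of WT cells and was lost without replicate 1 of WT at 120 hpi (1.38) or replicate 1 of R35A at 120 hpi (1.34) and with DESeq2 (1.62). The ratio of R35A to WT at that time was 2.87 (exact 95% interval 1.19 to 7.92, counting error only). Tet3 had a difference of -0.50 ± 0.06 and Uhrf1 of 0.49 ± 0.07, both under 1.5-fold.

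Compared directly at the same time, R35A cells had less Dnmt1, Uhrf1 and Dnmt3b than WT cells at 1, 3 and 6 hpi, 3 of 7 members each time, beside 10.8%, 9.04% and 7.52% of genes lower. Both R35A libraries lay below both WT libraries in each of these 9 comparisons. At 18 hpi 1 of 7 was lower, Tet1 (-0.72 ± 0.18, beside 3.17%), a call lost without replicate 2 of WT (-0.54). At 120 hpi Tet2 (-0.70 ± 0.05) and Tet3 (-0.62 ± 0.04) were lower, 2 of 7 beside 6.38%, and Tet1 was higher (1.51 ± 0.55, beside 12.4%). Tet3 was not called without the low-count filter (-0.57), nor Tet1 without replicate 1 of WT (1.26) or of R35A (1.22).

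**Figure D4:**
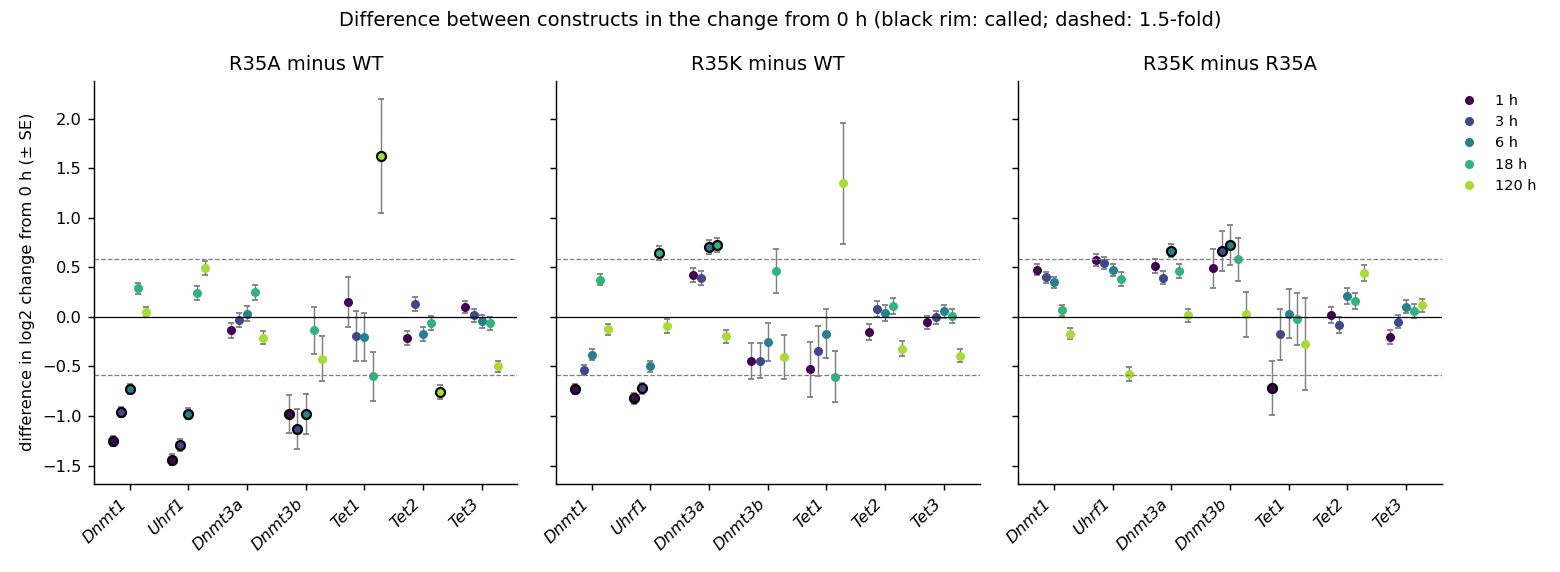
Difference between constructs in the log2 change from 0 hpi (± SE) for each gene, R35A minus WT (left), R35K minus WT (middle) and R35K minus R35A (right), coloured by time; black rims mark called values and dashed lines 1.5-fold. Dnmt1, Uhrf1 and Dnmt3b lie below 0 at 1, 3 and 6 hpi on the left, down to -1.44 for Uhrf1, and Dnmt3a lies above 0.5 at 6 and 18 hpi in the middle.

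R35K minus WT, from the fit of all 36 libraries, was called for 2 of 7 members at 1 hpi, Dnmt1 (-0.73 ± 0.05) and Uhrf1 (-0.82 ± 0.06), beside 5.08% of genes lower. At 3 hpi 1 of 7 was lower, Uhrf1 (-0.72 ± 0.06, beside 3.87%), and Dnmt1 had -0.53 ± 0.05. Dnmt3b had between -0.44 and -0.25 at 1 to 6 hpi, with no call. At 6 hpi the only member called was Dnmt3a, higher by 0.70 ± 0.07 (1 of 7, beside 7.66% of genes higher). At 18 hpi Dnmt3a was higher by 0.73 ± 0.07 and Uhrf1 by 0.64 ± 0.07, 2 of 7 beside 8.91%, and with DESeq2's size factors the Uhrf1 value was under 1.5-fold (0.54) and Tet1 was called lower (-0.71, adjusted p = 0.0260 in edgeR). At 120 hpi 0 of 7 were called by edgeR and DESeq2 and 1 by limma, Tet1, beside 10.1% of genes, and 1 passed at an unadjusted p, also Tet1 (1.35 ± 0.61).

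At 6 hpi Dnmt3a was higher in R35K cells than in both other constructs by the tested difference. R35K minus R35A for Dnmt3a was 0.51 ± 0.07 (1 hpi), 0.40 ± 0.07 (3 hpi), 0.67 ± 0.07 (6 hpi), 0.46 ± 0.07 (18 hpi), with 6 hpi past 1.5-fold. At 6 hpi Dnmt3b (0.73 ± 0.20) was called as well, 2 of 7 members beside 4.69% of genes higher. At 3 hpi Dnmt3b (0.66 ± 0.20) was the 1 of 7 called, beside 2.25%, and at 1 hpi Tet1 was lower in R35K (-0.72 ± 0.27, 1 of 7 beside 1.68%). The Dnmt3b value at 3 hpi and the Tet1 value had adjusted p of 0.0196 and 0.0498 in edgeR and were lost with DESeq2. The Tet1 call was lost without either 0 hpi library of R35A (-0.76 and -0.68), replicate 2 of R35A at 1 hpi (-0.54), replicate 1 of R35K at 0 hpi (-0.59) or either 1 hpi library of R35K (-0.74 and -0.70). Dnmt3b at 3 hpi was lost without replicate 2 of R35A at 0 hpi (0.63), either 3 hpi library of R35A (0.61 and 0.72) or replicate 1 of R35K at 3 hpi (0.58). Dnmt3b at 6 hpi was lost without replicate 2 of R35A at 6 hpi (0.53) and with limma (0.64). At 18 and 120 hpi 0 of 7 were called by edgeR, DESeq2 or limma, beside 3.44% and 1.61% of genes, with 3 members each at an unadjusted p of 0.05 or less and no fold asked. For Dnmt1 and Uhrf1 at 1 hpi R35K minus R35A was 0.48 ± 0.05 and 0.58 ± 0.06, both past the adjusted p and under 1.5-fold. These comparisons share the WT, R35A or R35K libraries with those above.

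Summed levels of other genes were lower after induction as well, B cell genes and replication genes alike. A list of 12 DNA replication genes (Mcm2 to Mcm7, Cdc6, Cdc45, Gins1, Gins2, Rrm2 and Tyms) summed in WT cells to 2485 and 2531 (0 hpi), 1349.9 and 1348 (1 hpi), 1162 and 1179 (3 hpi), 913 and 912 (6 hpi), 416 and 412 (18 hpi), 601 and 599 (120 hpi) CPM. R35A cells had 2344 and 2361 (0 hpi), 572 and 569 (1 hpi), 569.6 and 575 (3 hpi), 544 and 544 (6 hpi), 406 and 419 (18 hpi), 708 and 715 (120 hpi), and R35K cells 2424 and 2436 (0 hpi), 794 and 790.4 (1 hpi), 755 and 755 (3 hpi), 669 and 664 (6 hpi), 494 and 481 (18 hpi), 581 and 551 (120 hpi). All 12 genes had lower means than at 0 hpi at every later time in each construct. As a share of 0 hpi the sum was 53.8% in WT, 24.3% in R35A and 32.6% in R35K cells at 1 hpi, beside 59.3%, 25.7% and 35.8% for Dnmt1 and 39.3%, 14.9% and 22.2% for Uhrf1. At 18 hpi the sum was 16.5%, 17.5% and 20.1%, and Dnmt1 16.4%, 20.3% and 21.2%. The 8 B cell markers summed to 45.4% of 0 hpi in WT, 15.3% in R35A and 26.5% in R35K cells at 1 hpi and to 9.52%, 6.97% and 10.2% at 18 hpi, with all 8 genes below 0 hpi at every later time. The part of either list in the levels of the members was not tested.

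The fibroblast list moved otherwise. Its sum as a share of 0 hpi was 217% in WT, 217% in R35A and 186% in R35K cells at 1 hpi, 261%, 180% and 134% at 18 hpi, and 13.3%, 43.0% and 35.5% at 120 hpi. At 0 to 18 hpi 0 of its 6 genes were at the floor of 3 counts, and at 120 hpi Lum was, with Postn in R35K cells. The feeder sum was therefore higher at 1 to 18 hpi than at 0 hpi and lower at 120 hpi, when Dnmt3a, Tet2 and Tet3 were highest, and its part in any level was not tested.

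**Figure D5:**
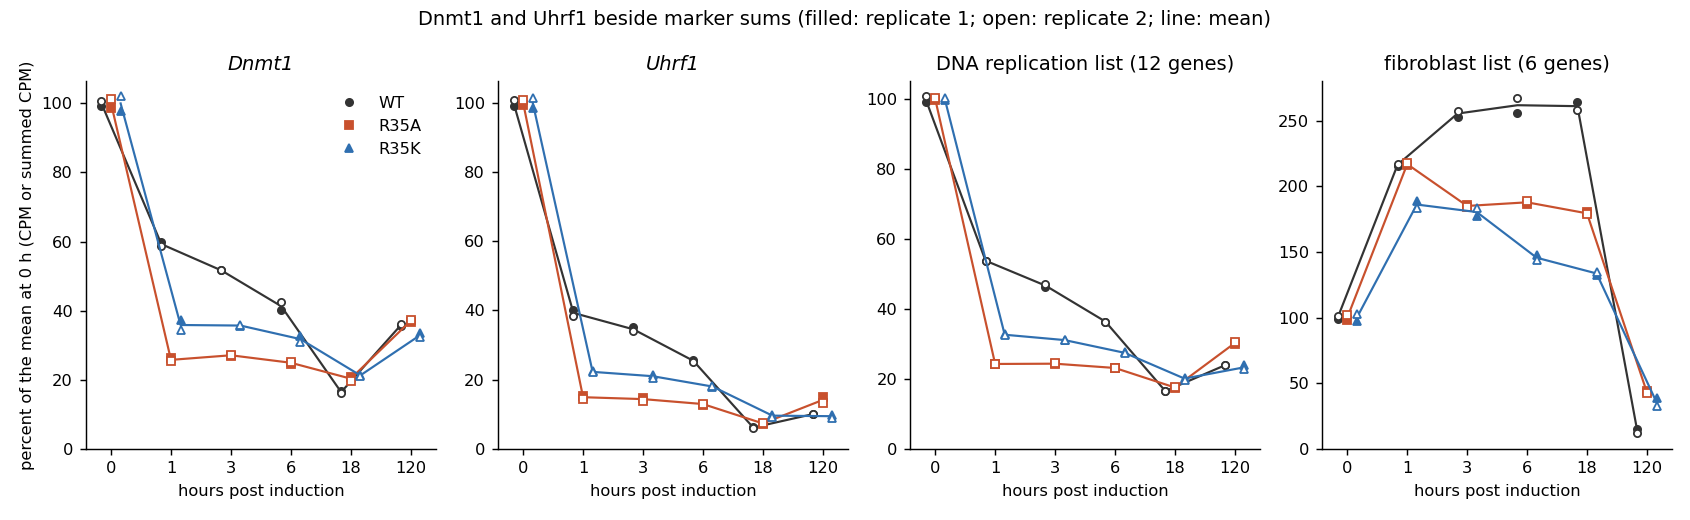
Levels of Dnmt1 and Uhrf1 and summed levels of 12 DNA replication genes and 6 fibroblast genes, each as percent of its mean at 0 hpi in the same construct (linear axes from 0), with both replicates and the mean. At 1 hpi the replication sum was 53.8% in WT and 24.3% in R35A cells, beside 59.3% and 25.7% for Dnmt1, while the fibroblast sum was 217% in both.

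Over the 18 group means of log2 CPM, among 17277 genes, the genes whose course was most like that of Dnmt1 were Trip13, Fignl1 and Mcm6 (Pearson r = 0.996 each), and like Uhrf1 were Esco2 (0.998), Pole (0.996) and Cenps (0.996). Among the genes nearest to Dnmt3b were Dek (0.988) and Smc6 (0.986). Dnmt3a was nearest to Gdi2 (0.985), Mbp (0.983) and Fry (0.981), Tet1 to Klhl42 (0.982), Irgq (0.982) and Zfp507 (0.981), Tet2 to P2ry10b (0.970), Ncoa6 (0.965) and Spty2d1 (0.963), and Tet3 to Atf6 (0.988), AW011738 (0.988) and Cbl (0.982). Between members, r was 0.958 for Dnmt1 and Uhrf1, 0.973 for Dnmt1 and Dnmt3b, 0.961 for Uhrf1 and Dnmt3b, 0.904 for Tet2 and Tet3 and 0.866 for Dnmt3a and Tet3, while Dnmt3a and Dnmt3b had 0.0695 and Tet1 and Tet2 -0.929. These values describe courses over groups that share constructs and times, and carry no test. By this measure Uhrf1 ranked 364 among the genes nearest to Dnmt1.

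In the order of the 18 group means, the 3 highest of Dnmt1, Uhrf1 and Dnmt3b were the groups of 0 hpi, and the 3 highest of Dnmt3a, Tet2 and Tet3 those of 120 hpi, the latter with WT first, then R35K, then R35A. Neighbours in that order overlapped between replicates in 5 of 17 pairs for Dnmt1, 3 for Uhrf1, 8 for Dnmt3a, 12 for Dnmt3b, 12 for Tet1, 10 for Tet2 and 13 for Tet3. For those with many overlapping pairs the order of most middle groups was not resolved.

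Of 40 further genes around DNA methylation, 39 were tested in WT and R35A cells and 38 in R35K cells. Dnmt3c had at most 2 counts in any library. In WT cells 4 rose and 11 fell at 1 hpi, and 10 rose and 22 fell at 120 hpi, where 10.7% of all genes rose and 9.27% fell, and then 23.1% and 40.2%. R35A cells had 5 higher and 12 lower at 1 hpi and 7 higher and 20 lower at 120 hpi, and R35K cells 6 and 12, then 9 and 21. Of all genes 18.3% rose and 18.9% fell in R35A cells at 1 hpi and 24.2% and 39.0% at 120 hpi, and in R35K cells 15.5% and 17.4%, then 25.4% and 38.5%. The list's median log2 change in WT cells was -0.06 at 1 hpi and -0.70 at 120 hpi, beside -0.01 and -0.36 over all genes. At 120 hpi 6 genes were higher and 20 lower in all 3 constructs, and 0 were called in opposite directions. Of all genes 63.3%, 63.1% and 63.8% were called at that time in WT, R35A and R35K cells. How many of all genes were called alike in the 3 constructs was not counted, so this agreement is not read as particular to the list. The difference R35A minus WT at 1 hpi was called for 1 gene higher and 9 lower, beside 5.29% and 8.74% of all genes, with a list median of -0.18 beside -0.02 over all genes.

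Of the partners of maintenance methylation 6 of 7 fell at 120 hpi in each construct, beside 40.2%, 39.0% and 38.5% of all genes in WT, R35A and R35K cells, and 4 of 7 in WT cells at 1 hpi, beside 9.27%. Counts this small were not tested as groups. Cdca7, a partner of the chromatin remodeller Hells, had the largest fall by 120 hpi in WT cells (-3.79 ± 0.09, from 98.0 to 7.71 CPM). Lig1, the ligase of the lagging strand, had the largest difference at 1 hpi, -1.49 ± 0.06, with 106 CPM in WT and 37.2 in R35A cells. Of the methyl-CpG readers 2 of 7 fell and 0 rose in WT cells at 120 hpi, beside 40.2% and 23.1% of all genes, with Zbtb33 (Kaiso) lowest at -0.78 ± 0.06.

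Of 8 genes of base excision repair 7 fell and 1 rose in WT cells at 120 hpi, beside 40.2% and 23.1% of all genes. Mbd4, a glycosylase for mismatches at CpG sites, had -1.99 ± 0.11, and Neil2, another glycosylase, rose by 1.72 ± 0.31 from 0.975 to 3.52 CPM. Parp1 differed most between constructs at 1 hpi (-1.47 ± 0.05, 208 CPM in WT and 75.1 in R35A cells). Among TET partners and regulators 3 rose and 4 fell of 7 in WT cells at 120 hpi, beside the same shares of all genes. Gadd45b, a stress gene linked to demethylation, rose by 1.97 ± 0.05. Cxxc4, whose product binds CpG and is known to lower Tet2 protein, had 94 and 85 counts at 0 hpi in WT cells and 0 and 0 at 120 hpi, and was at least 22.6-fold lower, at least 27.7-fold in R35A and at least 29.8-fold in R35K cells against a floor of 3 counts per library.

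Of 5 genes of methyl donor and 2-oxoglutarate supply 3 rose and 2 fell in WT cells at 120 hpi, where 23.1% and 40.2% of all genes did. Idh1, which makes 2-oxoglutarate, rose by 2.81 ± 0.05 (34.2 to 263 CPM), and Ahcy, which clears S-adenosylhomocysteine, fell (-2.19 ± 0.14) and differed at 1 hpi between R35A and WT by -0.60 ± 0.15. Dnmt3l, the catalytically inactive partner of Dnmt3a and Dnmt3b, had 1 and 2 counts at 0 hpi and 23 and 20 at 120 hpi in WT cells, at least 9.41-fold higher, and 49 and 58 counts at 120 hpi in R35A cells, at least 23.8-fold higher. Of the cytidine deaminases, Apobec1 rose by 4.69 ± 0.05 in WT cells at 120 hpi (19.7 to 556 CPM), and differed at 1 hpi by 0.86 ± 0.09. Apobec3 fell by 1.71 ± 0.05 by 120 hpi and differed at 1 hpi by -1.13 ± 0.07, with 70.4 CPM in WT and 31.2 in R35A cells.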

How the data were processed

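RNA was sequenced from 36 libraries (WT, R35A and R35K at 6 times, 2 replicates each). Per the labels, the authors aligned stranded single-end reads to mm10 with STAR 2.5.0a and deposited counts per gene, with R35K in a table of its own. Their deposited log2 tables hold log2(count / size factor + 1) from DESeq2 1.14.1: 252 of 252 member values were recovered from the counts within 0.001. The annotation release and the strand setting are not given in the sources used here. Libraries held 13044456 to 23131776 counts, median 15471229.5.

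Counts were tested as deposited with edgeR 4.0.16 in R 4.3.3 (quasi-likelihood test, filterByExpr, TMM, Benjamini-Hochberg adjustment over all genes tested). WT and R35A were fitted together (24 libraries, 16988 genes), R35K alone (12 libraries, 16434 genes), and differences with R35K in all 36 libraries (17277 genes). A call needs at least 1.5-fold and an adjusted p of at most 0.05. CPM used TMM over all libraries. DESeq2 1.42.0 and limma 3.58.1 were alternatives, and 1 contrast of each fit was also run on simulated data. Each SE of a log2 change was computed from the fit.

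Replicate numbers were not used to pair the samples. Over 153 pairs of groups the median correlation of deviations was -0.0071, with 15 above 0.1. A median near 0 cannot exclude pairing in part of the groups. Agreement with counting noise was examined only between the 2 replicates of each group. In the median gene the squared difference between replicates was 1.05 (R35A at 6 hpi) to 2.23 (R35K at 120 hpi) times that of counting noise. Some replicates thus lay close to counting noise. The biological coefficient of variation was 3.17% to 3.49%. P-values measure this narrow spread, taken over all groups of a fit. The mean chi-square per gene between replicates was 18.1 in WT at 6 hpi and 9.93 in R35K at 3 hpi, and 1.13 to 3.71 in the other groups. Some genes thus differed more between the replicates of those 2 groups.

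The members and lists were chosen with earlier results of these data known. All 7 members are named. Of each list of other genes, those with the largest called rise and fall by 120 hpi in WT and the largest called differences at 1 hpi are named, with any gene at the floor of 3 counts throughout. For each member the 3 most like genes are named, except that a gene like Dnmt3b and a marker are not reported here. Intervals cover counting error only.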

Additional observations from a re-analysis of the deposited data

Results flagged for a closer look

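The change from 0 hpi differed between constructs, by the test of the difference itself, for 21 of the 105 member values examined (edgeR quasi-likelihood test, at least 1.5-fold and adjusted p of at most 0.05). Of all genes, between 278 of 17277 (R35K minus R35A at 120 hpi) and 2460 of 16988 (R35A minus WT at 120 hpi) were called in a comparison. R35A minus WT was -1.25 for Dnmt1, -1.44 for Uhrf1 and -0.98 for Dnmt3b at 1 hpi, -0.96, -1.29 and -1.13 at 3 hpi, and -0.73, -0.98 and -0.98 at 6 hpi, on the log2 scale. At 120 hpi it was 1.63 for Tet1, a call lost with DESeq2, and -0.76 for Tet2.

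R35K minus WT was -0.73 for Dnmt1 and -0.82 for Uhrf1 at 1 hpi and -0.72 for Uhrf1 at 3 hpi. For Dnmt3a it was 0.70 at 6 hpi and 0.73 at 18 hpi, and for Uhrf1 0.64 at 18 hpi. R35K minus R35A was -0.72 for Tet1 at 1 hpi, 0.66 for Dnmt3b at 3 hpi, and 0.67 for Dnmt3a and 0.73 for Dnmt3b at 6 hpi. Of these values, Uhrf1 at 18 hpi, Tet1 at 1 hpi and Dnmt3b at 3 hpi lost their calls with DESeq2 and with limma. Dnmt3b at 6 hpi lost its call with limma.

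The Tet1 values rest on between 3 and 87 counts a library.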

How the results depend on the processing

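No value of the 7 genes changed sign under any alternative among those called. With an adjusted p alone and no fold threshold, the number of member values called of 35 was 31 in WT (19 with the fold), 31 in R35A (19), 18 for R35A minus WT (11), 15 for R35K minus WT (6) and 19 for R35K minus R35A (4), 41 of 84 (21) between consecutive times, and for the other genes 487 of 580 (307) and 92 of 195 differences (34). With a 2-fold threshold it was 12 between consecutive times, 5, 0 and 0 for the 3 differences and 16 for those of the other genes. R35K minus R35A had 2 calls with DESeq2 and 1 with limma.

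Leaving out each replicate in turn gave 19 to 20 calls in WT, 18 to 20 in R35A, 20 to 23 in R35K, 21 to 22 between consecutive times, 12 to 14 of 42 for R35A against WT at the same time (13 with all, 22 without the fold and 7 at 2-fold), 10 to 12, 6 to 7 and 3 to 5 for the 3 differences, 0 to 0 for R35K against WT at 0 hpi, and 301 to 310 and 33 to 37 for the other genes. With the replicate block 342 of 343 member values kept their call, and Tet1 in R35K minus R35A at 1 hpi (-0.72) lost it (adjusted p = 0.0651, edgeR). DESeq2's size factors moved the median log2 change of all genes by 0.16, 0.13 and 0.14 in WT, R35A and R35K at 120 hpi, and the share of higher calls from 66.8% to 52.8% for R35K minus WT at 18 hpi, from 71.2% to 58.5% for R35K minus R35A at 1 hpi and from 79.6% to 66.3% at 6 hpi. The causes were not tested. Depth limits Tet1, with 3 to 13 counts a library at 120 hpi, and Dnmt3b.

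Leaving out 1 library also brought values past the threshold that were not called with all: Dnmt3a in WT at 18 hpi without replicate 2 of that time (-0.61), Tet1 in R35A at 3 hpi (-0.71) and in R35A against WT at 3 hpi (-0.62) without replicate 1 of R35A at 3 hpi, Tet1 in R35K at 6 hpi without replicate 1 of that time (-0.62), Tet1 in R35K minus WT at 18 hpi without replicate 1 of WT at 18 hpi (-0.74), and Dnmt1 from 6 to 18 hpi in R35K without replicate 2 of 6 hpi (-0.60). Dnmt3b gained a call in R35A against WT (-0.66) and R35A minus WT (-0.66) at 120 hpi without replicate 2 of WT, from 18 to 120 hpi in R35A without replicate 2 of either time (0.73 and 0.71), and in R35K minus R35A at 1 hpi without replicate 2 of R35A (0.67) or R35K (0.61) at 1 hpi. Uhrf1 in R35K minus R35A passed it at 1 hpi without 1 of 4 libraries (0.59 to 0.62), at 3 hpi without replicate 1 of R35A (0.59) and at 120 hpi without 1 of 4 libraries (-0.65 to -0.59).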
